A study of Mus musculus with 6 samples.

Results

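The genes described here are 48 interferon response genes of the mouse colon, measured in 3 libraries from vehicle-treated mice and 3 from mice treated with pregnenolone-16α-carbonitrile (PCN). They were taken by gene name from the deposited table of 23282 genes. The list held 49 names, and 48 matched a row. The remaining name, Ddx58, is the older symbol of Rigi, which is in the table. All 48 passed the filter on low counts, under which 16586 genes were kept for testing. PCN is a synthetic steroid that activates the rodent pregnane X receptor (PXR), and the study used these libraries to search for genes that follow PXR activation in the colon. All mice were wild-type C57BL/6J, 8 weeks old. PCN was injected intraperitoneally at 40 mg/kg in a mixture of DMSO and corn oil, 3 times at intervals of 8 h, and the colon was taken 8 h after the last injection, while the other group is labelled control and its libraries are named as vehicle. The vehicle libraries carry the replicate numbers 3, 5 and 6 and the PCN libraries the numbers 4, 5 and 6. The labels do not say which stretch of colon was taken or how many mice stand behind a library. The p-values below therefore refer to the spread from library to library, which may be technical.

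Interferons are cytokines that cells release when they sense viral nucleic acid or other microbial products. Type I and type III interferons bind their receptors, activate the Janus kinases Jak1 and Tyk2 and thereby a complex that contains Stat2 and Irf9 and switches on many genes through a short DNA element, the interferon-stimulated response element (ISRE). In the gut, the resident bacteria are known to keep such genes expressed at a low tonic level without infection, and epithelial cells respond mainly to type III and leukocytes mainly to type I interferon.

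The ISRE core, written here as GAAA, any 2 bases and GAAA and searched on both strands, is the sequence through which this pathway is known to act on its target genes. RefSeq promoter windows of 300 bases, from 250 before to 50 after the transcription start (GRCm38.p6), were found for 36 of the 48 genes. The core was present in 17 of these 36 genes (47.2%) and in 3.99% of all 27025 genes with a window. A match describes the letters only and not a site in use. The 5 windows below belong to the members with the smallest unadjusted p in the comparison of PCN with vehicle among those that hold a core. They are written 5′ to 3′ on the strand of the gene, with the core in capitals, which reads TTTC, any 2 bases and TTTC where it lies on the other strand. The Gbp3 window (chr3:142559794-142560093, plus strand) held a pair of overlapping cores that begin at positions -45 and -39 from the start. The core began at -222 for Stat2 (chr10:128270248-128270547, plus strand), at -53 for Gbp7 (chr3:142530086-142530385, plus strand) and at 32 for Ifih1 (chr2:62646206-62646505, minus strand). Ifit3 (chr19:34583279-34583578, plus strand) had cores at -156 and -122.
Gbp3: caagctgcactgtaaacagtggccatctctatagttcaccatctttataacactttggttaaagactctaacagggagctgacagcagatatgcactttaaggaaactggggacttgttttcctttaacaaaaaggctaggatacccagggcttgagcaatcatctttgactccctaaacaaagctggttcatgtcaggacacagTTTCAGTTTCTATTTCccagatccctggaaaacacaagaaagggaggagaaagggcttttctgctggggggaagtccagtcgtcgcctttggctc
Stat2: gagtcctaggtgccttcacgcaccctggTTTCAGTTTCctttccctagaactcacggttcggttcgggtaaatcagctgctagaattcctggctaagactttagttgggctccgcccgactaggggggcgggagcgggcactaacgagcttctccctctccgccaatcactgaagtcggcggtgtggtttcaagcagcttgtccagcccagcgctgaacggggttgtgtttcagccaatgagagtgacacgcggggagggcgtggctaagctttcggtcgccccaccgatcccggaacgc
Gbp7: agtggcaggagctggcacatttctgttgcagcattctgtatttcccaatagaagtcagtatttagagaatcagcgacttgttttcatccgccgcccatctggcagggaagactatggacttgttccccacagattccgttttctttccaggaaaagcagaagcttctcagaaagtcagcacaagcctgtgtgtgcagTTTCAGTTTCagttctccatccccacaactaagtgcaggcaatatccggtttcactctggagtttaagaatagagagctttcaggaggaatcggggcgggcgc
Ifih1: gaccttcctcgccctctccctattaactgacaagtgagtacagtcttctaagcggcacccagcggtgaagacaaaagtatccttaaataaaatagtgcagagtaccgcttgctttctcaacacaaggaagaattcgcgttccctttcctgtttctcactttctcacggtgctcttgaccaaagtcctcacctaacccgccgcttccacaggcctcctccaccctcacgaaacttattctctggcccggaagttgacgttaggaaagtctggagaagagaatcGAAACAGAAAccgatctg
Ifit3: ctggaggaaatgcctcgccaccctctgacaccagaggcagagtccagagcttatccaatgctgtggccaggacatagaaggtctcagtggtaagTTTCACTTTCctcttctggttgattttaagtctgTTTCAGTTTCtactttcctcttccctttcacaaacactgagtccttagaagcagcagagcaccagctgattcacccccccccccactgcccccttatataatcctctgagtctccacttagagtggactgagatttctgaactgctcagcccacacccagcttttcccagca
These 5 genes include a sensor of viral RNA, a subunit of the complex that binds the ISRE, an antiviral Ifit protein and 2 guanylate-binding proteins, and their levels in each library are given with their groups below.

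The libraries held 21924026 to 25422856 counts and 20538 to 20963 detected genes each. Log2 CPM (read counts relative to the size of the library after TMM scaling) correlated across genes at 0.973 to 0.984 within groups and at 0.969 to 0.982 between them. Every pair of libraries differed by more than sampling noise would give. The colon markers Car1 and Muc2 were high in every library, with 4548, 2380.0 and 1928 CPM after vehicle and 3888, 4217 and 5243 CPM after PCN for Car1 and 17050.0, 15780.0 and 14070.0 CPM after vehicle and 25740.0, 20350.0 and 20530.0 CPM after PCN for Muc2. Here and below, values follow the order of vehicle replicates 3, 5 and 6 and of PCN replicates 4, 5 and 6. On the interferon response genes themselves vehicle replicate 3 stood apart, and results are therefore also given without it.

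Interferon response genes were highest in vehicle replicate 3, intermediate in vehicle replicate 5 and, in most cases, no higher in vehicle replicate 6 than after PCN. The summed level of the 48 genes was 5028, 2993 and 1794 CPM after vehicle and 1782, 1562 and 2256 CPM after PCN. Vehicle replicate 3 was the highest of the 6 libraries for 45 of the 48 genes, as it was for 13.7% of all genes tested. The vehicle libraries ran from replicate 3 through 5 to 6 for 43 genes, against 10.9% of all genes, and replicate 3 was at least 2 times replicate 6 for 38 genes, against 3.59%. The ratio of replicate 3 to replicate 6 had a median of 2.83 and ran from 1.36 for Mx1 to 10.4 for Isg15 and 12.5 for Ifi44. Vehicle replicate 6 lay within the range of the PCN libraries for 37 genes (46.6% of all genes), below all of them for 8 (27.1%) and above all of them for 3 (26.3%).

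**Figure D1:**
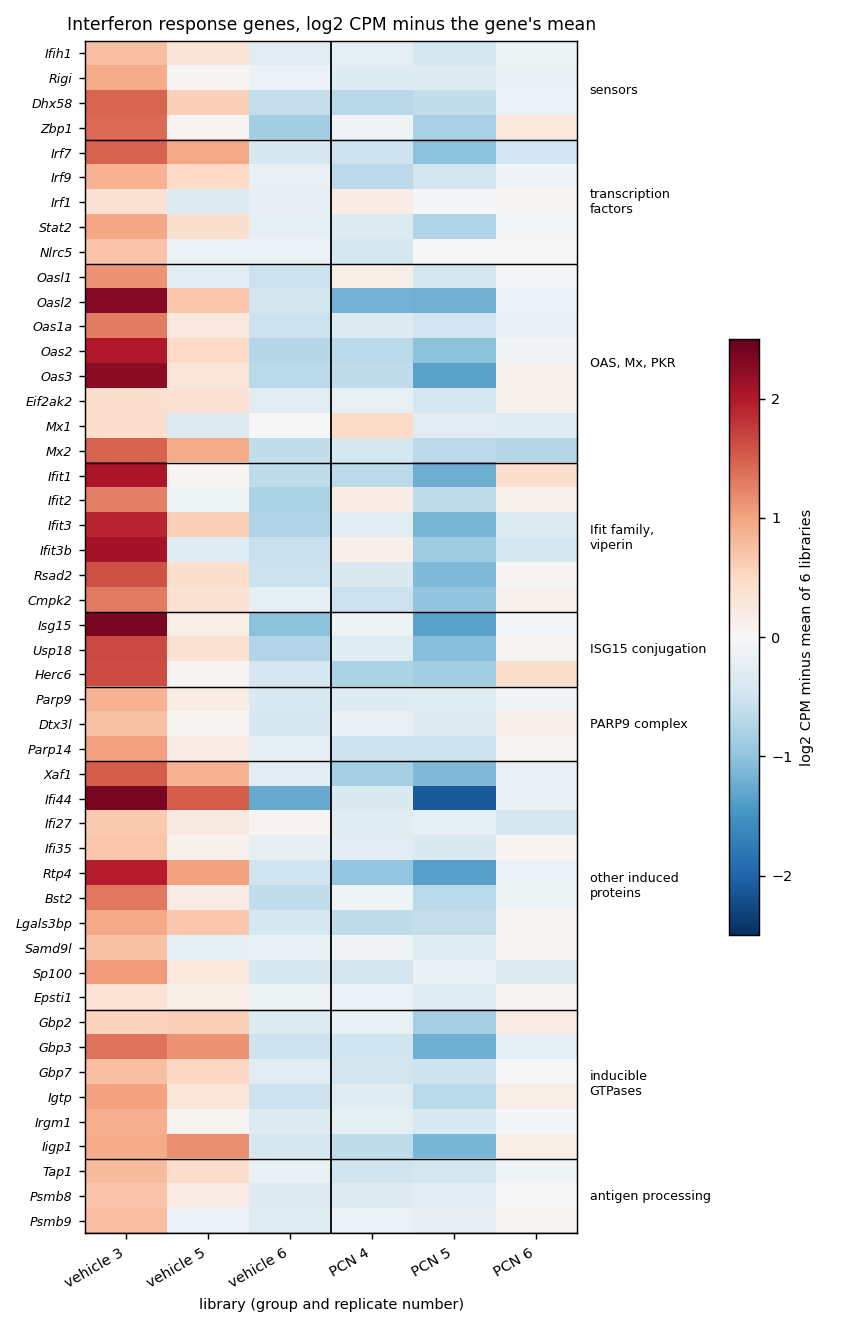
Log2 CPM of each of the 48 genes (rows, grouped by role) in each library (columns), minus the gene's mean over the 6 libraries, with red above and blue below the mean. The column of vehicle replicate 3 is red throughout, with a median of 1.04, vehicle replicate 5 has a median of 0.28, and the other 4 libraries have medians from -0.63 to -0.038.

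PCN libraries also differed among themselves, by less than the vehicle libraries. Replicate 6 was the highest PCN library for 38 genes (36.1% of all genes) and replicate 5 the lowest for 37 (30.8%), and the median ratio of replicate 6 to replicate 5 was 1.45. The standard deviation of log2 CPM was larger in the vehicle than in the PCN group for 47 of the 48 genes, as it was for 54.6% of all genes, with medians of 0.77 and 0.32. Since colon tissue is a mixture of cells, fewer cells of a type and less RNA per cell cannot be told apart in these values.

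The comparison of PCN with vehicle asks which genes follow PXR activation. The fitted log2 fold change was below 0 for 47 of the 48 interferon response genes, against 48.4% of all genes tested, with a median of -0.77 against 0.0085 over all genes. By edgeR's quasi-likelihood test with Benjamini-Hochberg adjustment over all 16586 genes, none of the 48 genes passed an adjusted p of 0.05, and over all genes 1 passed as lower (0.00603%) and 5 as higher (0.0301%). At an unadjusted p under 0.05, edgeR gave 23 members as lower, where 3.73% of all genes were lower, and 0 as higher, where 6.25% were. DESeq2 gave 2 members as lower after adjustment, Xaf1 and Ifi27 (0.271% of all genes), and 26 without adjustment (4.11%). The smallest adjusted p of a member from edgeR was 0.288, for Ifi27. The groups did not overlap for 3 members, Rigi, Irf7 and Ifi27, against 7.39% of all genes with every PCN library below every vehicle library.

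These counts depended on which library was left out. Without vehicle replicate 3 the median log2 fold change was -0.28, 38 genes were below 0, and edgeR without adjustment gave 8 as lower (4.55% of all genes) and 1 as higher (7.49%). Without vehicle replicate 6 the median was -1.05 and edgeR without adjustment gave 41 as lower (2.53% of all genes), while DESeq2 after adjustment gave 22 (0.426%). Leaving out vehicle replicate 5, PCN replicate 4 or PCN replicate 5 left 15 (3.69% of all genes), 12 (2.09%) and 9 (2.51%) genes lower by edgeR without adjustment, and leaving out PCN replicate 6 left 26 (4.19%). The 8 genes that were lower without vehicle replicate 3 were Irf7, Irf9, Oasl2, Xaf1, Ifi27, Rtp4, Gbp3 and Tap1, and the gene that was higher was Irf1. Without that library the median log2 fold change moved from -0.64 to -0.27 for the sensors, from -0.81 to -0.46 for the transcription factors and from -1.13 to -0.32 for the Oas and Mx families with PKR. It moved from -1.21 to -0.24 for the Ifit family with viperin and Cmpk2, from -1.11 to -0.13 for the Isg15 group and from -0.54 to -0.16 for the Parp9 group. For the other induced proteins it moved from -0.77 to -0.37, for the GTPases from -0.66 to -0.45 and for antigen processing from -0.44 to -0.15.

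**Figure D2:**
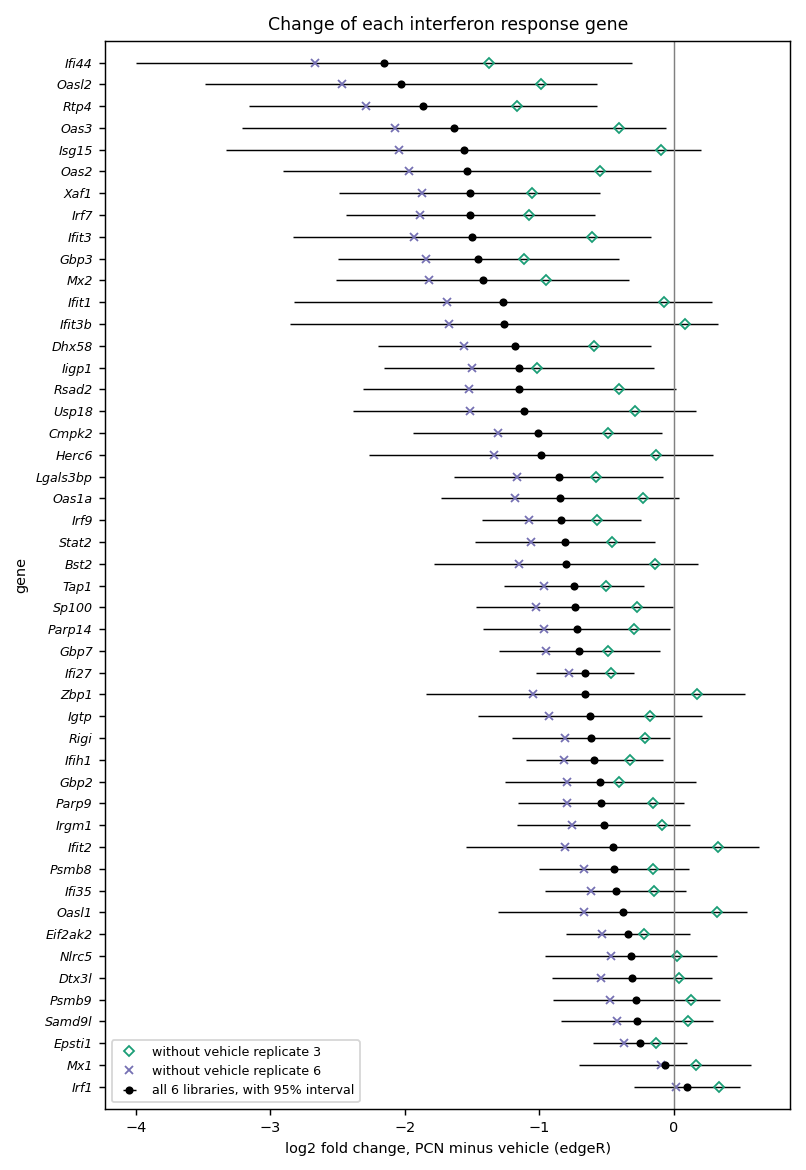
Log2 fold change of each gene (PCN minus vehicle, edgeR) with its 95% confidence interval from all 6 libraries (black), and the fold change without vehicle replicate 3 (open diamonds) or without vehicle replicate 6 (crosses). The values lie between -2.15 for Ifi44 and 0.10 for Irf1, most diamonds lie closer to 0, and most crosses lie further below it.

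Sensors of nucleic acid stand at the start of the response. Dhx58 (LGP2), a regulator of the RNA helicase sensors, had 39.1, 21.6 and 9.41 CPM after vehicle and 8.80, 9.25 and 12.8 CPM after PCN. Ifih1 (MDA5), the sensor of long double-stranded RNA whose promoter is shown above, had 156, 116 and 77.7 CPM after vehicle and 78.4, 68.5 and 85.2 CPM after PCN. For both, vehicle replicates 3 and 5 lay above all PCN libraries and vehicle replicate 6 among them. Rigi (RIG-I), the sensor of viral RNA with a free triphosphate end, had 80.3, 43.0 and 38.4 CPM after vehicle and 34.0, 33.9 and 37.5 CPM after PCN, so that its groups did not overlap, with vehicle replicates 5 and 6 close to the PCN libraries. Zbp1, which binds left-handed nucleic acid and triggers necroptosis, had 96.2, 37.9 and 19.8 CPM after vehicle and 33.6, 20.5 and 43.3 CPM after PCN, and its vehicle replicate 6 was below every PCN library. The log2 fold changes were -1.18 for Dhx58 (95% confidence interval -2.20 to -0.17), -0.59 for Ifih1 (-1.10 to -0.078), -0.62 for Rigi (-1.20 to -0.030) and -0.66 for Zbp1 (-1.84 to 0.53). Dhx58, Ifih1 and Rigi were the 3 of 4 sensors that were lower at an unadjusted p under 0.05, and none was so without vehicle replicate 3. Rigi (ENSMUSG00000040296) lies on chromosome 4 of GRCm38 from 40203773 to 40239828.

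Among the transcription factors, Irf7, which amplifies type I interferon production, showed the widest span. It had 444, 309.7 and 121 CPM after vehicle and 113, 78.3 and 116 CPM after PCN. All 3 PCN libraries were below all vehicle libraries, but vehicle replicate 6 and PCN replicate 6 differed by only a few CPM. The group means were 292 ± 162 CPM after vehicle and 102 ± 20.7 CPM after PCN (SD, n = 3 each). Irf7 (ENSMUSG00000025498) lies on chromosome 7 of GRCm38 from 141262706 to 141266481. Its log2 fold change was -1.51 (standard error 0.40, with an edgeR unadjusted p = 0.00542 and adjusted p = 0.326). Without vehicle replicate 3 it was -1.07.

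Irf9 and Stat2 encode subunits of the ISRE-binding complex. Irf9 had 112, 86.2 and 53.9 CPM after vehicle and 38.7, 44.4 and 58.4 CPM after PCN, and Stat2 had 133, 89.1 and 57.7 CPM after vehicle and 53.6, 40.5 and 65.99 CPM after PCN. In both, vehicle replicate 6 lay among the PCN libraries and the other vehicle libraries above them. Their log2 fold changes were -0.83 (95% confidence interval -1.43 to -0.24) and -0.81 (-1.48 to -0.14). Nlrc5, the activator of MHC class I genes, had 13.2, 7.34 and 7.25 CPM after vehicle and 5.99, 8.13 and 8.18 CPM after PCN, where only vehicle replicate 3 was apart. Irf1, a factor that interferon gamma strongly induces, was the only member with a fitted value above 0 (0.098, 95% confidence interval -0.30 to 0.50). It had 179, 111 and 122 CPM after vehicle and 160.4, 138 and 143 CPM after PCN, with vehicle replicate 3 the highest and vehicle replicates 5 and 6 the lowest of all libraries, and without vehicle replicate 3 its log2 fold change was 0.34 (edgeR unadjusted p = 0.0148). Of the 5 factors, Irf7, Irf9 and Stat2 were lower at an unadjusted p under 0.05 in the full comparison, and Irf7 and Irf9 without vehicle replicate 3.

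The oligoadenylate synthetases produce the messenger that activates RNase L, which degrades viral and cellular RNA, and Mx proteins and the kinase PKR block the growth of viruses. Oasl2, an Oas-like protein, had the second largest fitted decrease of all members. It had 526, 174 and 77.8 CPM after vehicle and 47.4, 46.4 and 97.0 CPM after PCN, so that the vehicle libraries spanned 6.77-fold and vehicle replicate 6 lay below PCN replicate 6. Oas2 had 73.0, 25.8 and 11.1 CPM after vehicle and 11.4, 8.999 and 17.4 CPM after PCN. Oas3 had 103, 27.3 and 13.9 CPM after vehicle and 14.1, 8.71 and 23.6 CPM after PCN. In these genes vehicle replicate 3 was more than 2 times every other library, vehicle replicate 5 was next, and vehicle replicate 6 fell among the PCN libraries. Oas1a, one of several Oas1 copies of the mouse, had 124, 60.0 and 35.2 CPM after vehicle and 40.1, 36.5 and 45.3 CPM after PCN, with vehicle replicate 6 below every PCN library. Oas1a, Oas2 and Oas3 are neighbours on chromosome 5 of GRCm38, between 120730333 and 120907521, and Oasl1 and Oasl2 lie side by side on the same chromosome from 114896936 to 114937915. Mx2 had 8.46, 5.81 and 2.00 CPM after vehicle and 2.25, 1.94 and 1.86 CPM after PCN and the narrowest PCN group of the family. Log2 fold changes were -2.03 for Oasl2 (95% confidence interval -3.48 to -0.57), -1.63 for Oas3 (-3.21 to -0.057), -1.53 for Oas2 (-2.90 to -0.17), -1.42 for Mx2 (-2.51 to -0.33) and -0.85 for Oas1a (-1.73 to 0.037). Oasl2, Oas2, Oas3 and Mx2 were the 4 of 8 genes in the group that were lower at an unadjusted p under 0.05, and only Oasl2 was so without vehicle replicate 3.

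The other genes of this group differed less. Eif2ak2, which encodes PKR, had a log2 fold change of -0.34 and Oasl1, which in mice represses the translation of Irf7, one of -0.38. Mx1, named here after its values were seen as the member with the smallest change, had 15.6, 9.03 and 11.4 CPM after vehicle and 15.9, 9.37 and 9.28 CPM after PCN. It was the only member whose highest library was a PCN library, replicate 4. In C57BL/6J mice a known deletion removes coding exons of Mx1, so its transcript gives no working protein.

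**Figure D3:**
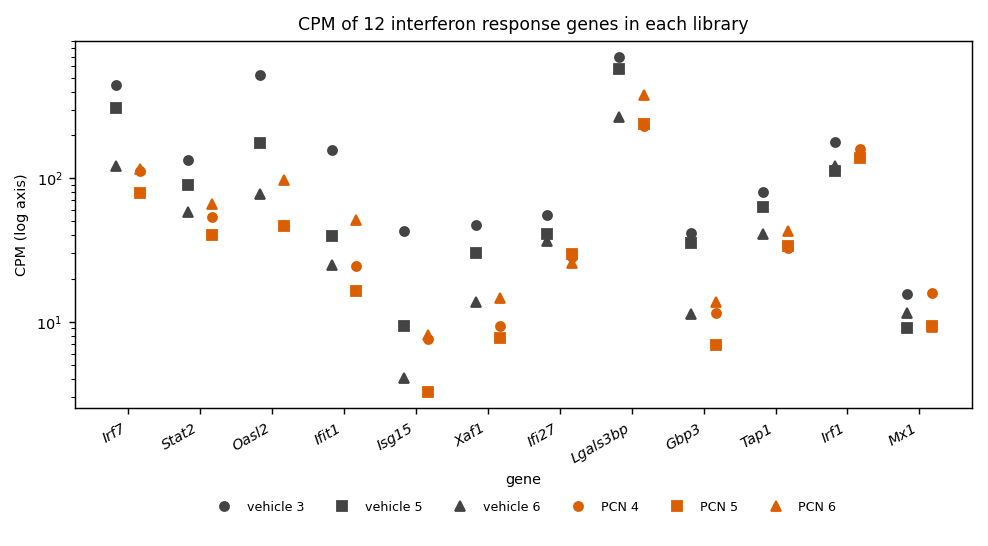
CPM (log axis) of 12 genes in each library, chosen to cover the roles and to include the members that changed least. Grey symbols are vehicle and orange symbols PCN libraries, with the shape showing the library. Irf7 and Ifi27 are the only genes plotted whose groups do not overlap, and for Irf1 and Mx1 the groups lie on the same level.

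The Ifit proteins bind foreign RNA and block its translation, and viperin, encoded by Rsad2, makes a chain-terminating nucleotide together with its neighbour Cmpk2. Ifit3, whose promoter with a pair of cores is shown above, had 44.4, 17.9 and 6.98 CPM after vehicle and 9.68, 5.33 and 9.45 CPM after PCN. Its near copy Ifit3b had 11.7, 2.23 and 1.88 CPM after vehicle and 3.01, 1.49 and 2.03 CPM after PCN. Ifit1 had 157, 39.9 and 24.9 CPM after vehicle and 24.6, 16.4 and 51.1 CPM after PCN. Vehicle replicate 3 was the highest library for all 6 genes of the group, and the median ratio of vehicle replicate 3 to replicate 6 was 5.31. Rsad2 had 39.6, 17.2 and 8.98 CPM after vehicle and 10.24, 6.07 and 13.3 CPM after PCN, and Cmpk2 had 57.4, 30.1 and 19.6 CPM after vehicle and 16.0, 11.8 and 25.2 CPM after PCN. In both, vehicle replicate 5 was above and vehicle replicate 6 within the PCN libraries. The log2 fold changes were -1.50 for Ifit3 (95% confidence interval -2.83 to -0.17), -1.27 for Ifit1 (-2.82 to 0.29), -1.26 for Ifit3b (-2.85 to 0.33), -1.15 for Rsad2 (-2.31 to 0.017) and -1.01 for Cmpk2 (-1.94 to -0.086). Ifit2 had -0.45. Ifit3 and Cmpk2 were lower at an unadjusted p under 0.05, and neither was without vehicle replicate 3, when the log2 fold change was -0.61 for Ifit3, -0.49 for Cmpk2, -0.41 for Rsad2, -0.075 for Ifit1, 0.085 for Ifit3b and 0.33 for Ifit2. Ifit3 shares 31.7% and Ifit3b 27.4% of their 100-base transcript words with each other, so that the counts of the pair may not be separate.

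Isg15 is a ubiquitin-like modifier, Usp18 removes it from proteins and also restrains the type I receptor, and Herc6 is the ligase that attaches it in mice. Isg15 had 42.6, 9.36 and 4.08 CPM after vehicle and 7.59, 3.26 and 8.05 CPM after PCN. Usp18 had 22.6, 9.31 and 4.28 CPM after vehicle and 5.78, 3.43 and 7.50 CPM after PCN. Herc6 had 33.5, 11.4 and 8.08 CPM after vehicle and 6.27, 5.94 and 14.4 CPM after PCN. The ratio of vehicle replicate 3 to replicate 6 was 10.4, 5.29 and 4.14, and for all 3 genes vehicle replicate 6 lay within the PCN range. Despite log2 fold changes of -1.56 (95% confidence interval -3.33 to 0.20), -1.11 (-2.39 to 0.17) and -0.99 (-2.26 to 0.29), none of the 3 passed an unadjusted p of 0.05 in edgeR, and 1 did in DESeq2. Without vehicle replicate 3 the log2 fold changes were -0.091, -0.29 and -0.13.

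Parp9 and Dtx3l form a complex of an ADP-ribosyltransferase and a ubiquitin ligase that enhances interferon signalling, and Parp14 is a related mono-ADP-ribosyltransferase. Parp14 had 242, 136 and 101 CPM after vehicle and 83.7, 83.5 and 124 CPM after PCN. Parp9 had 125, 77.6 and 52.8 CPM after vehicle and 55.0, 55.2 and 65.4 CPM after PCN. Dtx3l had 139.8, 88.0 and 64.0 CPM after vehicle and 74.2, 67.7 and 92.9 CPM after PCN. All lie on chromosome 16 of GRCm38 between 35832874 and 35972605, and for Parp9 and Dtx3l vehicle replicate 6 was below every PCN library. Parp14 was lower at an unadjusted p under 0.05 (log2 fold change -0.72, 95% confidence interval -1.42 to -0.025), while Parp9 had -0.54 (-1.16 to 0.078) and Dtx3l -0.31 (-0.91 to 0.28). None was so without vehicle replicate 3. Exons of Parp9 and Dtx3l overlap on opposite strands, over 9.40% of Parp9 and 8.00% of Dtx3l, and whether counting used strand is not stated.

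Of the other induced proteins, Xaf1 and Ifi27 were the members that DESeq2 called. Xaf1, which binds and opposes the apoptosis inhibitor XIAP, had 47.1, 30.1 and 13.8 CPM after vehicle and 9.32, 7.76 and 14.7 CPM after PCN. Vehicle replicates 3 and 5 were above every PCN library, and vehicle replicate 6 was just below PCN replicate 6. Xaf1 (ENSMUSG00000040483) lies on chromosome 11 of GRCm38 from 72301629 to 72313733. Its log2 fold change was -1.52 (95% confidence interval -2.49 to -0.55), with an edgeR adjusted p of 0.345. In DESeq2 the log2 fold change was -1.53 with an adjusted p of 0.00989. That p was 8.50e-06 to 0.616 when 1 library was left out, ending the call without vehicle replicate 3 (0.130) or 5 (0.424) and without PCN replicate 4 (0.616) or 5 (0.145).

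Ifi27, a small interferon-induced membrane protein, had 55.0, 40.6 and 36.6 CPM after vehicle and 28.2, 29.7 and 25.7 CPM after PCN. Its vehicle libraries spanned 1.504-fold, a narrow range among the members, and PCN replicate 6, the highest PCN library for most members, was the lowest of all. The group means were 44.0 ± 9.70 CPM after vehicle and 27.9 ± 2.03 CPM after PCN (SD, n = 3 each). Ifi27 (ENSMUSG00000064215) lies on chromosome 12 of GRCm38, from 103434211 to 103440239. Its log2 fold change was -0.66 (95% confidence interval -1.02 to -0.30), with an edgeR unadjusted p of 0.00301 and adjusted p of 0.288. In DESeq2 the log2 fold change was -0.67 with an adjusted p of 0.0202, and leaving out 1 library gave adjusted p values of 0.00618 to 0.137 in DESeq2. The DESeq2 call held without each vehicle library and ended without PCN replicate 4 (0.137), 5 (0.0798) or 6 (0.108).

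Rtp4, a chaperone of receptor proteins, had 71.9, 37.1 and 13.0 CPM after vehicle and 9.48, 7.22 and 16.7 CPM after PCN. Ifi44, an interferon-induced protein of little known function, had 38.7, 21.4 and 3.10 CPM after vehicle and 5.78, 1.73 and 6.69 CPM after PCN and both the largest fitted decrease and the widest vehicle group of all members. Lgals3bp, a secreted protein that binds galectin-3, had 692, 578 and 264 CPM after vehicle and 231, 237 and 380.5 CPM after PCN. The log2 fold changes were -1.87 for Rtp4 (95% confidence interval -3.16 to -0.57), -2.15 for Ifi44 (-4.00 to -0.31) and -0.85 for Lgals3bp (-1.63 to -0.077), and in all 3 genes vehicle replicate 6 lay within the PCN range. Sp100, a component of nuclear bodies, was also lower at an unadjusted p under 0.05 (-0.74). Bst2 (tetherin), which holds budding viruses at the cell surface, had -0.80, Ifi35 -0.43, Samd9l, which restricts viral protein synthesis, -0.27 and Epsti1 -0.25. In all, 6 of these 10 genes were lower at an unadjusted p under 0.05, and Xaf1, Ifi27 and Rtp4 were so without vehicle replicate 3.

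The inducible GTPases attack the membranes around intracellular microbes. Gbp3, a guanylate-binding protein whose promoter holds the overlapping cores shown above, had 41.9, 35.4 and 11.3 CPM after vehicle and 11.5, 6.93 and 13.8 CPM after PCN. Gbp7, its neighbour on chromosome 3, had 36.2, 30.8 and 17.8 CPM after vehicle and 15.8, 15.03 and 21.4 CPM after PCN. Iigp1, an immunity-related GTPase, had 42.3, 49.3 and 16.2 CPM after vehicle and 14.2, 9.95 and 24.4 CPM after PCN. In all 3 genes vehicle replicates 3 and 5 were both above every PCN library, and in Iigp1 replicate 5 exceeded replicate 3. Irgm1, a regulator of such GTPases, had 119.8, 66.3 and 50.8 CPM after vehicle and 54.4, 48.6 and 62.0 CPM after PCN. Gbp2 had 38.1, 38.5 and 20.04 CPM after vehicle and 22.4, 14.4 and 29.4 CPM after PCN, with vehicle replicates 3 and 5 level. The log2 fold changes were -1.45 for Gbp3 (95% confidence interval -2.496 to -0.41), -1.15 for Iigp1 (-2.15 to -0.15), -0.70 for Gbp7 (-1.30 to -0.11), -0.55 for Gbp2 (-1.25 to 0.16) and -0.52 for Irgm1 (-1.16 to 0.12), and Igtp, another regulator, had -0.62. Vehicle replicate 5 was above all PCN libraries for all 6 GTPases (30.8% of all genes) and vehicle replicate 6 for none. Gbp3, Gbp7 and Iigp1 were lower at an unadjusted p under 0.05, and Gbp3 was so without vehicle replicate 3.

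Antigen processing genes completed the list. Tap1, a subunit of the transporter that loads peptides onto MHC class I, had 79.7, 62.7 and 41.0 CPM after vehicle and 32.6, 33.9 and 43.0 CPM after PCN. Psmb8 and Psmb9, catalytic subunits of the immunoproteasome, had 36.0, 25.5 and 17.7 CPM after vehicle and 17.6, 18.4 and 22.2 CPM after PCN and 28.0, 14.96 and 13.4 CPM after vehicle and 15.02, 14.4 and 17.0 CPM after PCN respectively. The spread of the vehicle libraries was narrower here, with a ratio of replicate 3 to replicate 6 of 1.94, 2.04 and 2.09. Tap1 was lower at an unadjusted p under 0.05 with and without vehicle replicate 3 (log2 fold change -0.74, 95% confidence interval -1.26 to -0.22, and -0.51), whereas Psmb8 had -0.44 (-0.9985 to 0.11) and Psmb9 -0.28 (-0.90 to 0.34). Tap1 and Psmb9 lie head to head on chromosome 17 of GRCm38 and overlap on opposite strands, over 3.87% of Tap1 and 5.79% of Psmb9. Psmb8 and, among the genes above, Ifi35 also overlap a gene on the opposite strand, over 14.7% and 16.8% of their exons.

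Levels of the members relative to each other were read from the authors' FPKM (fragments relative to transcript length and library size), which account for length. Lgals3bp was the most abundant, with a mean over the 6 libraries of 139.6 FPKM, followed by Irf7 (52.2), Irf1 (35.7), Oas1a (30.2) and Samd9l (28.9). Nlrc5 (0.983 FPKM), Mx2 (1.03 FPKM) and Herc6 (1.43 FPKM) were the least abundant. These places depended on the group. After vehicle Oasl2, at 41.0 ± 37.0 FPKM, was above Oas1a and Irf1, and after PCN it had 9.81 ± 4.46 FPKM (SD, n = 3 each). Ifi44, at 3.46 ± 2.91 FPKM after vehicle, was with 0.759 ± 0.422 FPKM after PCN below Nlrc5 and Herc6. Irf7 was at 77.8 ± 42.5 FPKM after vehicle and 26.6 ± 5.30 FPKM after PCN (SD, n = 3 each), whereas Irf1 had 35.0 ± 9.03 and 36.4 ± 2.79 FPKM. Oas1a shares 40.9% of its 100-base transcript words with other genes, chiefly Oas1g, and its level is uncertain for that reason, as those of Herc6, Gbp7 and Rtp4 are to a lesser degree (10.3% for Herc6 and 9.28% for Rtp4).

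The other steps of the pathway were read from lists chosen by role. Of 21 interferon ligand names only Ifnl2, Ifnl3 and Ifng had a row, with 0 to 7 counts per library, and none could be tested. A count of 0 allows up to 3 counts, or 0.118 to 0.136 CPM, in these libraries. All 6 interferon receptor genes had log2 fold changes close to 0, from -0.12 for Ifnlr1, the type III receptor subunit (95% confidence interval -0.49 to 0.24), to 0.050 for Il10rb (-0.63 to 0.72), with -0.072 for Ifngr2 (-0.31 to 0.17). None had an unadjusted p under 0.05, with or without vehicle replicate 3. The same held for the 10 genes of receptor signalling tested here, with a median of 0.0071, and of -0.095 without that library. The kinase genes Tyk2 and Jak2 had log2 fold changes of -0.20 (95% confidence interval -0.43 to 0.023) and -0.097 (-0.34 to 0.14), and Ptpn2, which encodes a phosphatase that acts on Janus kinases, had 0.14 (-0.12 to 0.41).

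**Figure D4:**
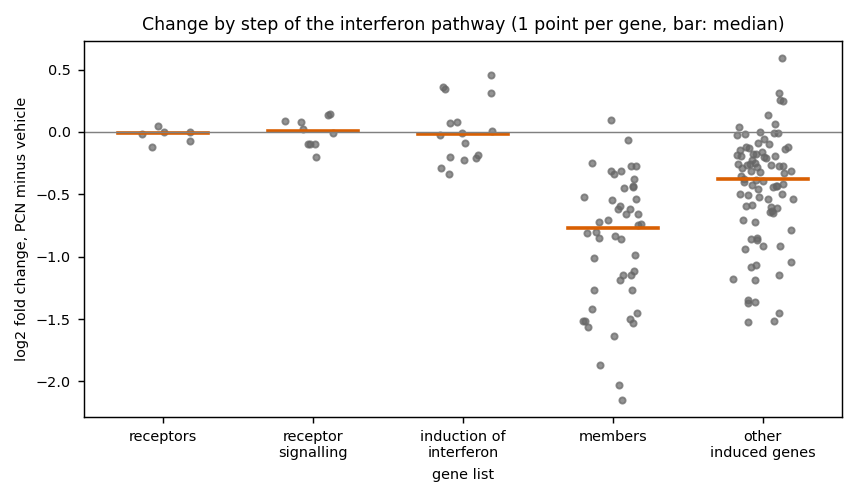
Log2 fold change (PCN minus vehicle, edgeR) of every gene tested in 5 lists, 1 point per gene, with the median as a bar. Receptors, receptor signalling and the genes that induce interferon centre near 0, the 48 members have a median of -0.77 and the 87 other interferon-stimulated genes one of -0.38.

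Of 16 genes that act in the induction of interferon, 1 was lower (3.73% of all genes) and 1 higher (6.25%) at an edgeR unadjusted p under 0.05. Without vehicle replicate 3, again 1 was lower (4.55% of all genes) and 1 higher (7.49%), so these counts are near the shares over all genes. Tlr3, the endosomal receptor of double-stranded RNA, had 60.9, 59.4 and 47.5 CPM after vehicle and 46.6, 44.9 and 45.7 CPM after PCN. Its log2 fold change was -0.29 (95% confidence interval -0.55 to -0.034). Irf8, a factor of myeloid and B cells, had 109.6 ± 20.8 CPM after vehicle and 149.9 ± 22.8 CPM after PCN (SD, n = 3 each) and went the other way (0.45, 95% confidence interval 0.087 to 0.82). Ticam1, the adaptor of Tlr3, had -0.20 (-0.42 to 0.0093). Tlr3 and Ticam1 were the 2 of 16 genes with every PCN library below every vehicle library, against 7.39% of all genes. Without vehicle replicate 3 Ticam1 was the lower gene (edgeR unadjusted p = 0.0426), and Tlr3 was not lower at that threshold (edgeR unadjusted p = 0.107). A further list of 93 names of interferon-stimulated genes that are not members had 90 rows, of which 87 were tested. Of these 80 had a log2 fold change below 0 (48.4% of all genes), with a median of -0.38, and vehicle replicate 3 was the highest library for 65 (13.7%). At an unadjusted p under 0.05, edgeR gave 22 as lower (3.73%) and 1 as higher (6.25%). None of the 87 passed after adjustment in edgeR, and DESeq2 gave 1, Ifi27l2b, a relative of Ifi27, with 184, 146 and 75.8 CPM after vehicle and 48.0, 51.0 and 58.5 CPM after PCN (log2 fold change -1.37). Gbp6 and Oas1b, relatives of members, had -1.18 and -1.18, and the gene that was higher was Plscr1 (0.25). Without vehicle replicate 3 the median of this list was -0.085, with 8 genes lower (4.55% of all genes) and 4 higher (7.49%).

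Markers of several cell types also differed between the libraries, and some of them between the groups. The 4 general leukocyte markers (Ptprc, Coro1a, Laptm5, Cd53) summed to 145, 78.0 and 104 CPM after vehicle and 104, 177 and 168 CPM after PCN, and the 8 macrophage and monocyte markers to 233, 117 and 148 CPM after vehicle and 195, 232 and 235 CPM after PCN. Both were lowest in vehicle replicate 5, where the interferon response genes were second highest, and both were about as high in PCN replicates 5 and 6 as in vehicle replicate 3, or higher. No general leukocyte marker had an unadjusted p under 0.05, and of the 8 macrophage and monocyte markers 1 was higher after PCN, Csf1r (0.60). For these and the marker counts below, edgeR gave 6.25% of all genes as higher at that p, or 7.49% without vehicle replicate 3. Without vehicle replicate 3, 4 of the 4 general leukocyte markers and 7 of the 8 macrophage and monocyte markers were higher after PCN at an unadjusted p under 0.05, and the median log2 fold change moved from 0.48 to 0.71 for the former and from 0.42 to 0.75 for the latter. The 3 plasma cell markers summed to 705, 396 and 562 CPM after vehicle and 1008, 1427 and 801 CPM after PCN. Of these 2 were higher at an unadjusted p under 0.05 with and without vehicle replicate 3. For Jchain, the joining chain of secreted antibodies, the groups did not overlap (log2 fold change 1.29, DESeq2 adjusted p = 0.00226). Of all 16586 genes tested, 1441 were higher after PCN without overlap. The 5 B cell markers summed to 5.98 to 17.2 CPM after vehicle and 9.08 to 49.2 CPM after PCN, the highest being PCN replicate 5, and 0 of 5 were higher, or 1 without vehicle replicate 3. Of the 5 dendritic cell markers tested 1 was higher, or 3 without that library, and of the T cell and neutrophil markers 0 were in either case. Of the 3 cytotoxic lymphocyte markers tested 1 was higher with and without that library, Gzmb (log2 fold change 0.90), whose groups did not overlap. Of the 4 fibroblast markers 2 were higher with and without that library, and of the 4 smooth muscle markers, with a median of 0.75, 1 was higher, or 2 without it. Siglech, a marker of plasmacytoid dendritic cells, which are strong producers of type I interferon, had at most 0.884 CPM. Its counts were 3, 1 and 4 after vehicle and 22, 5 and 9 after PCN, too few to pass the filter for testing.

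The 7 epithelial markers summed to 7222, 6953 and 6222 CPM after vehicle and 7933, 6736 and 6217 CPM after PCN. Of these 0 of 7 had an unadjusted p under 0.05, with or without vehicle replicate 3. The 6 colon epithelium markers summed to 22620.0, 19210.0 and 17020.0 CPM after vehicle and 30810.0, 25620.0 and 26770.0 CPM after PCN, and Muc2 made up most of these sums. The vehicle sums of both lists fell from replicate 3 through 5 to 6. That order held for 3 of the 7 epithelial and 2 of the 6 colon epithelium markers, against 10.9% of all genes. Of the 6 colon epithelium markers Muc2, the main intestinal mucin, was higher after PCN (log2 fold change 0.51, DESeq2 adjusted p = 0.0291). Its groups did not overlap, as for 1441 of all 16586 genes with PCN higher. Car1 was also higher without vehicle replicate 3 (1.05). Markers of the small intestine, 10 genes of which 9 were tested, summed to 218 to 369 CPM after vehicle and 193 to 308 CPM after PCN. Of these 4 were lower after PCN at an unadjusted p under 0.05 in edgeR (3.73% of all genes), or 3 without vehicle replicate 3 (4.55%). In the 10 marker genes of that list vehicle replicate 5 had the lowest sum of the vehicle libraries (218 CPM) and PCN replicate 6 the lowest of all libraries (193 CPM). The part of any of these cells in the interferon response values was not tested.

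**Figure D5:**
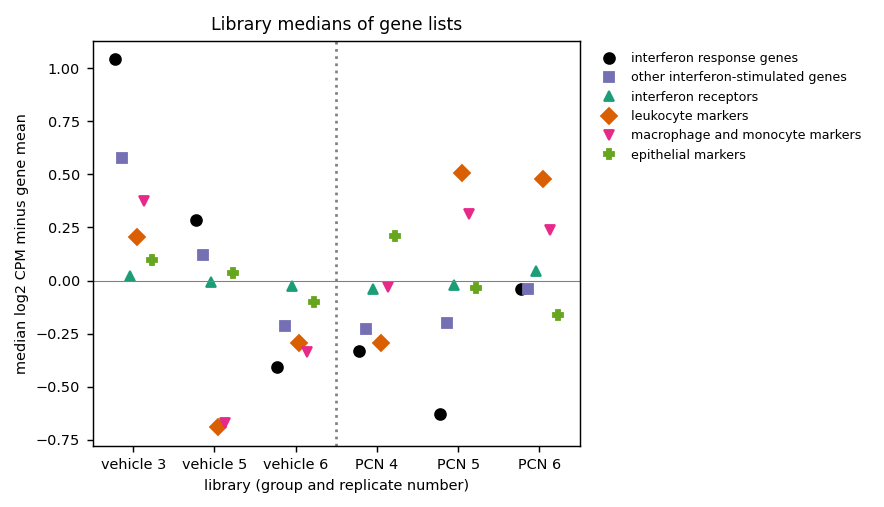
Median over each gene list of the log2 CPM minus the gene's mean, for each library (points, 1 symbol per list, shifted sideways for legibility). Interferon response genes and other interferon-stimulated genes go down from vehicle replicate 3 to 5 to 6, receptors stay near 0, and the leukocyte and macrophage lists are lowest in vehicle replicate 5.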

How the data were processed

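The deposited counts per gene were made, per the study's methods, with STAR and HTSeq (versions not given in the sources used here). The table also holds the deposited FPKM values, for which the calculation is not stated. The methods name a pig assembly and TruSeq libraries, and the labels mm10, a SMARTER kit and another RNA input. Gene identifiers are those of Ensembl mouse, and positions were looked up by identifier in GENCODE M21 (GRCm38). The deposited fold changes and p-values, which compare PCN with vehicle, were not used. Total counts were 21924026 to 25422856 per library. The ligands, with few counts each, are measured imprecisely, and limits for a count of 0 cover counting error only.

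Counts were tested in R 4.3.3 with edgeR 4.0.16 (TMM, filterByExpr with a minimum count of 10 and total of 15, glmQLFit and glmQLFTest, Benjamini-Hochberg adjustment over 16586 genes, threshold 0.05). The common biological coefficient of variation was 0.199. Alternatives were DESeq2 1.42.0, its size factors in edgeR, no filter, each library left out and a replicate block, and, added after seeing the data, DESeq2 with each library left out. Log2 CPM used a prior count of 2. The scripts were tested on simulated counts. Shared sequence was measured as 100-base words of GENCODE transcripts. Members and lists were chosen with earlier results of these data known. Values per library are given for up to 5 members per role with the smallest unadjusted p in edgeR and for members called by either tool, and of each pathway list up to 3 genes by the same p. A gene of the signalling list is not reported here. Protein sequences were not used here.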

Additional observations from a re-analysis of the deposited data

How the results depend on the processing

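Of the 48 interferon response genes, 38 kept the sign of their log2 fold change in every planned setting, and none passed an adjusted p of 0.05 from edgeR in any setting. DESeq2 size factors in edgeR moved no count by over 1.5 times. DESeq2 gave 45 genes lower and 172 higher after adjustment over all genes, against 1 and 5 in edgeR, 2 of the members and 1 of the other interferon-stimulated genes. Without a filter on low counts, edgeR gave 2 lower and 25 higher. The cause of these differences was not tested.

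With each library left out in turn, edgeR gave 0 to 2 genes lower and 0 to 22 higher after adjustment, and 354 to 770 lower and 663 to 1267 higher without it. Members numbered 8 to 41 lower, the extremes being without vehicle replicates 3 and 6, and 0 to 1 higher, and other interferon-stimulated genes 5 to 39 lower and 0 to 4 higher. In DESeq2 after adjustment, the ranges were 26 to 88 lower and 90 to 317 higher over all genes, 0 to 22 lower among members (none without PCN replicate 4 or 5, 22 without vehicle replicate 6), and 1 to 22 lower and 0 to 1 higher among other interferon-stimulated genes. Log2 fold changes whose sign turned when 1 library was left out ranged from -1.05 to 0.17 (Zbp1), -0.032 to 0.34 (Irf1), -0.46 to 0.026 (Nlrc5), -0.67 to 0.32 (Oasl1), -0.37 to 0.17 (Mx1), -0.81 to 0.33 (Ifit2), -1.67 to 0.085 (Ifit3b), -0.54 to 0.043 (Dtx3l), -0.45 to 0.11 (Samd9l), -0.47 to 0.13 (Psmb9), -0.22 to 0.0086 (Ifnlr1), -0.032 to 0.14 (Il10rb) and -0.16 to 0.0082 (Jak2).

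The replicate numbers 5 and 6 occur in both groups, but deviations from the group means did not go together (r = -0.15 between the libraries numbered 5 and -0.09 between those numbered 6, over 16586 genes), so the numbers were not taken as pairs. A fit with the replicate number as a block, which compares replicates 5 and 6 only, gave 10 genes lower and 64 higher after adjustment, none of them a member. Without adjustment it gave 279 genes lower, 3 members lower, and 4 other interferon-stimulated genes lower and 6 higher. The members' median log2 fold change under the block was -0.25. Replicate numbers found in a single group do not enter the comparison of the block fit. Its spread therefore rests on fewer libraries than in the other settings, and its counts are not directly comparable with theirs. Values under the block with the opposite sign were 0.12 for Zbp1, 0.16 for Nlrc5, 0.19 for Oasl1, 0.17 for Ifit2, 0.080 for Dtx3l, 0.086 for Samd9l, 0.15 for Psmb9 and 0.033 for Ifngr2.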

Other observations

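Promoter letters were set beside the values of the members. The 17 members with an ISRE core in their window had a median log2 fold change of -0.81 and a median ratio of vehicle replicate 3 to replicate 6 of 3.53, and the 19 with a window but no core had -0.74 and 2.62. The second group includes Ifi44 and Oasl2, with the largest fitted decreases of all members, and also Irf7, Xaf1 and Irf1. Among other interferon-stimulated genes with a window, 53.6% held the ISRE core. No test was made of these differences.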
